A study of Mus musculus with 2 samples.

Results

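The genes described here are 10 mouse genes of creatine and calcium cycling, found by their exact symbols among the 27179 genes of the count table of each of 2 RNA-seq libraries. They comprise the creatine uptake transporter gene Slc6a8, the creatine synthesis genes Gatm and Gamt, the creatine kinase genes Ckb, Ckmt1 and Ckmt2, the phosphatase gene Alpl, the calcium pump gene Atp2a2 and the calcium release channel genes Ryr2 and Ryr3. Of these, Ckmt2, Ryr2 and Ryr3 are typical of muscle and are given apart from the other 7. Both libraries were made from interscapular brown adipose tissue (iBAT) of untreated C57BL/6N mice aged 20 days, which the series describes as male. One library came from wildtype mice and the other from mice lacking uncoupling protein 1 (Ucp1-KO), and each was a pool of tissue from 3 animals. With 1 library per genotype there is no replicate check, so each comparison is between these libraries, intervals cover counting error only, and no p-value is given.

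UCP1 lets protons re-enter the mitochondrial matrix without making ATP and so turns fuel oxidation into heat. In the creatine cycle known from thermogenic fat, creatine is phosphorylated with ATP and phosphocreatine is then hydrolysed without useful work, so that ADP is returned and respiration goes on. In the calcium cycle, SERCA pumps spend ATP to move calcium into the endoplasmic reticulum, ryanodine receptors and other channels let it out again, and the repeated pumping releases heat. Several of these proteins are also abundant in skeletal or heart muscle, where they serve the phosphocreatine store and contraction.

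Sequencing depth was nearly equal, with 52950913 assigned counts in the wildtype and 53216727 in the Ucp1-KO library. Ucp1 itself had 366473 counts in wildtype and 37853 in Ucp1-KO iBAT, a log2 ratio of -2.98, so its transcript was lower but still counted. Mitochondrially encoded genes took 22.4% of wildtype and 36.7% of Ucp1-KO counts, and counts were therefore normalised by the median ratio over genes. With total counts as the scale, the median log2 ratio of all genes fell by 0.31, so ratios are read relative to the median gene. In the wildtype library 4 Y-linked genes (Eif2s3y, Kdm5d, Uty and Ddx3y) had 0 counts, against 491 to 3446 counts in the Ucp1-KO library, while Xist had 32380 and 16478 counts. The wildtype library thus held Xist without these Y-linked transcripts, as female tissue would. The Ucp1-KO library held both, as a pool of both sexes would. This goes against the description of all animals as male. The sex-linked difference and genotype cannot be told apart. Skeletal muscle transcripts differed as well. The 22 muscle markers listed, such as Acta1 and Myh7, summed to 0.665% of wildtype and 0.0784% of Ucp1-KO counts, and every one was lower in Ucp1-KO iBAT. In bulk tissue, fewer cells of a type and less RNA per cell cannot be told apart.

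The creatine kinases are encoded by separate genes of related sequence, and the results below turn on how reads divide among them. The stretch around the codon of the active-site cysteine is shown because it is conserved in the whole family and still differs between the genes at enough positions to tell them apart. Each line gives 69 bases of coding sequence, 5′ to 3′, from GRCm39 with the GENCODE vM39 annotation, and capitals mark bases that differ from Ckb.
Ckb: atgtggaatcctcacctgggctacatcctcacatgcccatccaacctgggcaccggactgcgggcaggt
Ckm: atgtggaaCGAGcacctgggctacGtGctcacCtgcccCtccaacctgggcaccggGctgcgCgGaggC
Ckmt1: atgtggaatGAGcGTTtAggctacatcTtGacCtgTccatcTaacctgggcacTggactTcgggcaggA
Ckmt2: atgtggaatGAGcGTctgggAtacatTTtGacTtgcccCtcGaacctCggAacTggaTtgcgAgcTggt

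The Ckb stretch lies at chr12:111636344-111636412 on the minus strand and the Ckm stretch at chr7:19154068-19154136 on the plus strand, each within a single coding exon, with the cysteine at codon 283 of 381. The Ckmt1 stretch lies at chr2:121193192-121193260 on the plus strand and the Ckmt2 stretch at chr13:92006360-92006428 on the minus strand, also within a single coding exon, with the cysteine at codon 317 of 418 and of 419. Ckm, the muscle cytosolic kinase, differed from Ckb at 12 of these bases, Ckmt1 at 15 and Ckmt2 at 18. Over the whole aligned coding sequence, Ckb was 76.5% identical to Ckm and 66.7% identical to Ckmt2, and its longest run of identical bases was 20 with Ckm and 15 with Ckmt2. The longest identical run within the family, 39 bases, was between Ckmt1 and Ckmt2. No 75-base window of the annotated Ckmt1 or Ckmt2 transcripts occurred in another gene, whereas 13.4% of the Ckb windows also occurred in the annotated gene Gm12892. Of the Atp2a2 windows, 3.12% occurred in Gm30970. Neither Gm12892 nor Gm30970 was listed by symbol among the genes counted. How reads of these shared windows were counted is not known, since the treatment of reads that map to several places is not given.

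Compared to wildtype iBAT, Slc6a8, Ckb and Atp2a2 were higher in Ucp1-KO iBAT. Ckmt2 and Ryr3 were several-fold lower, and Ryr2 was higher at a low level. Relative to the median gene, Gatm, Gamt and Alpl differed by no more than counting error. After normalisation, 9 of the 10 genes had a mean normalised count of at least 10 and were examined among 15212 genes. Ckmt1 did not reach this level. At least 2-fold higher in Ucp1-KO were 2 members, Slc6a8 and Ryr2, beside 7.42% of all genes examined. At least 2-fold lower were 2 members, Ckmt2 and Ryr3, beside 9.55% of all genes. The 95% counting interval of the ratio lay above 0 on the log2 scale for 4 members, beside 31.5% of all genes, and below 0 for 2 members, beside 30.5%. The median log2 ratio of the 9 members was 0.35, against 0.00 for all genes examined (quartiles -0.39 and 0.35). It was 0.45 for the 6 examined members that are not typical of muscle and -2.52 for the 3 that are. With Atp2a2, which slow and heart muscle also use, counted among the latter, the medians were 0.35 and -0.99.

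The levels of the genes among themselves were compared as CPM (counts scaled to library size) per kilobase of exon, since longer transcripts collect more reads. In the wildtype library Atp2a2 was the most abundant at 32.1, followed by Ckb at 18.0, Ckmt2 at 9.18, Slc6a8 at 6.01 and Alpl at 2.11, while Gamt at 0.742 and Gatm at 0.458 were low. In the Ucp1-KO library the order was Atp2a2 at 37.8, Ckb at 24.99, Slc6a8 at 10.6 and Alpl at 1.64, then Ckmt2 at 0.871, Gamt at 0.766 and Gatm at 0.310. Ckmt2 thus lay above Slc6a8 and Alpl in the wildtype library and below both in the Ucp1-KO library, and these places were the same with 2 other transcript lengths. The order of the lower genes depended on the length used. With the canonical transcript Ckmt2 was at 3.10 in the Ucp1-KO library, within the interval of Alpl at 3.36, and Gatm and Gamt were at 1.28 and 0.819 in the wildtype and at 0.868 and 0.845 in the Ucp1-KO library. The ryanodine receptor genes were the lowest of those examined, Ryr2 at 0.0455 and 0.0943 and Ryr3 at 0.0448 and 0.00594, and in the wildtype library their intervals overlapped. These values are scaled to the total and are read within a library.

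**Figure D1:**
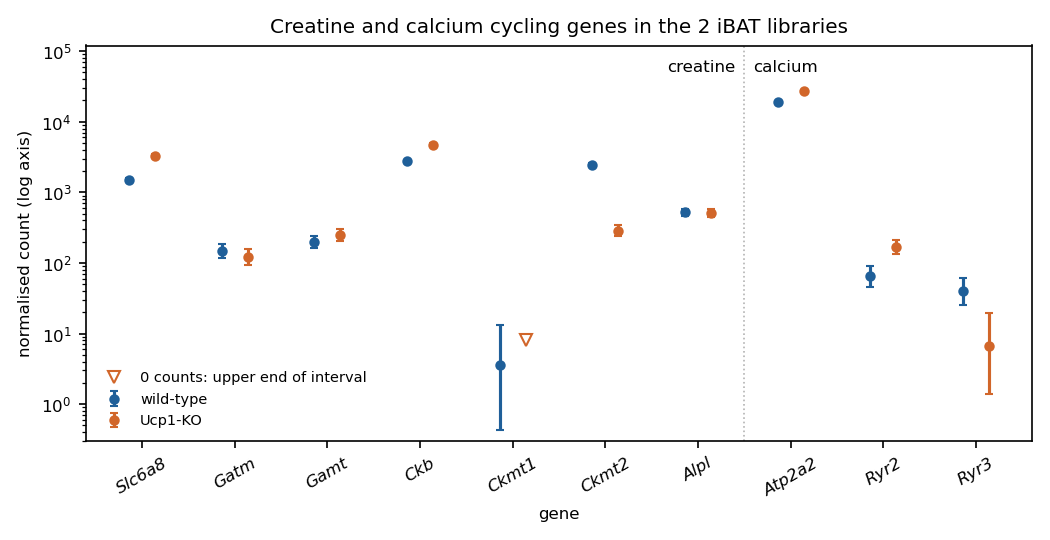
Normalised counts of the 10 genes in the wildtype and the Ucp1-KO library on a log axis, 1 point per library, with bars for 95% counting intervals. The libraries lie far apart for Ckmt2 (2437 and 286) and Ryr3 (40.6 and 6.66), in the opposite direction for Slc6a8 (1503 and 3276), and close together for Alpl, Gatm and Gamt.

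Slc6a8, the plasma membrane transporter that brings creatine into cells, had 1668 counts in the wildtype and 2953 in the Ucp1-KO library. These correspond to 1503 and 3276 normalised counts. The gene was 2.18-fold higher in Ucp1-KO iBAT (95% interval 2.00 to 2.38), a log2 ratio of 1.12. Its ratio was the 946th highest of 15212, within the top 6.22%. With total counts as the scale its log2 ratio was 0.82 and no longer reached 2-fold. Ratios this large were less common among genes at a like level: of 5779 genes with a mean of 1000 to 10000 normalised counts, 2.54% were at least 2-fold higher. The gene lies on the X chromosome (X:72716728-72726108, plus strand), whose genes were examined because of the sex-linked difference between the libraries. The median log2 ratio of 491 X-linked genes was -0.01 and that of 14267 autosomal genes was 0.00, and 8.96% and 7.06% of them were at least 2-fold higher.

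Creatine synthesis starts with GATM, which transfers the amidino group of arginine to glycine. Gatm (2:122424948-122441799, minus strand) had 163 counts in wildtype and 111 in Ucp1-KO iBAT, or 147 and 123 normalised counts, and the interval of its log2 ratio, -0.77 to 0.26, included 0. With total counts as the scale its log2 ratio was -0.56, within this interval. GAMT then methylates the product to creatine. Gamt (10:80089960-80096860, minus strand) had 218 and 226 counts, or 196 and 251 normalised counts, with a log2 ratio of 0.35 (-0.04 to 0.74). A rise of Gamt was thus not detectable at this depth, although intervals on the counts as deposited, which are narrower, ran from 0.08 to 0.63. Of the 5027 bases of the canonical Gamt transcript, 473 overlap Ndufs7 on the opposite strand, which had 11952 and 11664 counts, and the reads of the overlap cannot be assigned to a gene without knowing whether counting used strand.

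The supply of arginine and of methyl groups, from which creatine is made, was read from a further list of 11 genes, of which 9 were examined. None was 2-fold higher or lower, the median log2 ratio was 0.09, and the interval lay above 0 for 3 genes and below 0 for 2. The largest ratios were those of Gnmt, a glycine methyltransferase, at -0.83 (-1.45 to -0.25) and Ass1, an enzyme of arginine synthesis, at -0.65 (-1.08 to -0.24). Pemt, a methyltransferase of phospholipid synthesis, was at -0.42 with an interval that included 0.

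The creatine kinases diverged. Ckb (12:111635789-111639008, minus strand), the cytosolic brain-type kinase, had 3074 counts in wildtype and 4282 in Ucp1-KO iBAT. In normalised counts these were 2771 and 4751, with Ckb 1.71-fold higher in Ucp1-KO (1.61 to 1.83), a log2 ratio of 0.78 (0.47 with total counts as the scale). The ratio of 0.78 was the 1627th highest of all genes examined, within the top 10.7%. Ckmt2 (13:92001503-92025608, minus strand), the mitochondrial kinase of heart and skeletal muscle, had 2704 and 258 counts, or 2437 and 286 normalised counts. It was 8.50-fold lower in Ucp1-KO iBAT (7.10 to 10.3) and its log2 ratio of -3.09 was the 155th lowest of all genes examined. Ckmt1 (2:121188195-121195706, plus strand), the mitochondrial kinase of most other tissues, had 4 counts in wildtype and 0 in Ucp1-KO iBAT. Both lie under the limit of 6 counts that a count of 0 allows, equal to 0.113 CPM, and no fold is given.

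Ckm, which is not one of the 10 genes but completes the family, had 10025 and 1779 counts, and its log2 ratio was -2.19 (-2.30 to -2.09). Shares within the family were taken from counts per kilobase of exon. Ckb then made up 38.9% (95% interval 37.5 to 40.2%) of creatine kinase transcript in wildtype and 85.4% (84.5 to 86.4%) in Ucp1-KO iBAT. The Ckmt2 share went from 19.8% to 2.98% and the Ckm share from 41.3% to 11.6%. The larger share of Ckb joined a higher Ckb level with lower Ckm and Ckmt2 levels. For every 1000 counts of Ckmt2 there were 1137 counts of Ckb in the wildtype and 16597 in the Ucp1-KO library.

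**Figure D2:**
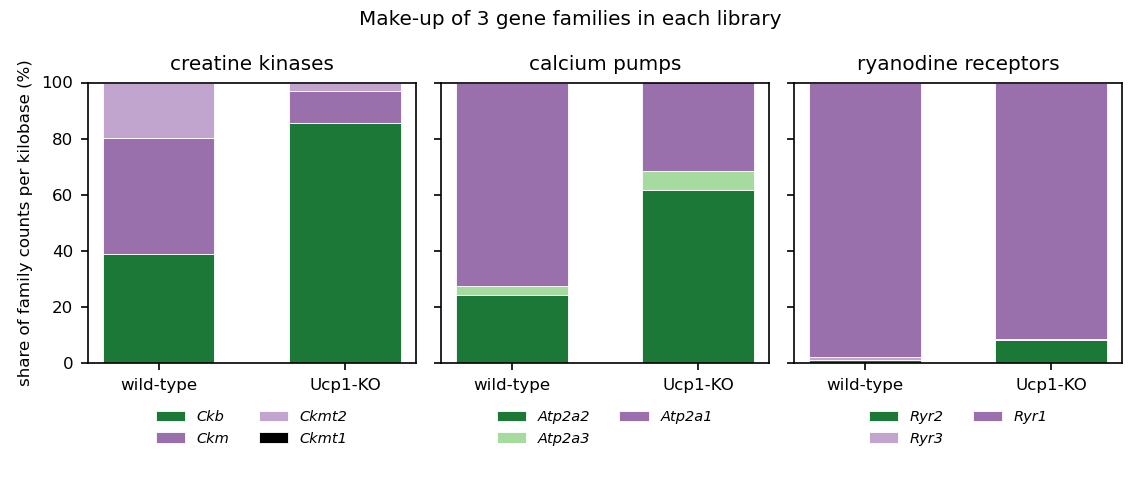
Share of each gene in the length-scaled counts of the creatine kinase, SERCA pump and ryanodine receptor families in the wildtype and the Ucp1-KO library, as stacked bars. Ckb goes from 38.9% to 85.4% and Atp2a2 from 24.3% to 61.8%, while Ryr1 holds over 90% of ryanodine receptor transcript in both libraries.

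Whether the lower Ckmt2 level went with the lower muscle transcripts was read from ratios within each library. The log2 ratio of Ckmt2, -3.09, lay inside the range of the 22 skeletal muscle markers, which ran from -3.92 to -1.87 with a median of -2.69. There were 35.4 Ckmt2 counts per 1000 of Acta1, the skeletal actin, in wildtype and 43.6 in Ucp1-KO iBAT. Per 1000 counts of Myh7, the slow myosin heavy chain, there were 315 and 235, per 1000 of Tnnc1, the slow troponin C, 1860 and 1132, and per 1000 of Ckm 270 and 145. Ckmt2 therefore differed between the libraries less relative to each of these 4 transcripts than in its own level, and was higher against Acta1 and lower against the others. Any gene lower by a like amount would do so, in whatever cells it is expressed. Ucp1, with a log2 ratio of -2.98, also lay inside the range of the muscle markers. The part of muscle transcripts in the Ckmt2 result was not tested.

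Alpl (4:137469039-137524102, minus strand) encodes tissue-nonspecific alkaline phosphatase, which hydrolyses phosphocreatine in the creatine cycle of thermogenic fat. It had 581 counts in wildtype and 454 in Ucp1-KO iBAT, or 524 and 504 normalised counts. The log2 ratio was -0.06 and its interval, -0.31 to 0.20, included 0 and did not reach a 2-fold change in either direction. With total counts as the scale the log2 ratio was -0.36, below this interval. The 9 genes of ATP exchange and adenylate kinases, which carry ATP and ADP across the mitochondrial membrane and interconvert adenine nucleotides, had a median log2 ratio of 0.10. Of these only Ak4, a mitochondrial matrix kinase, passed 2-fold, with 381 counts in wildtype and 37 in Ucp1-KO iBAT and a log2 ratio of -3.05 (-3.84 to -2.37). Slc25a5, an ATP/ADP carrier, had a log2 ratio of 0.37.

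Atp2a2 (5:122591575-122640903, minus strand) encodes SERCA2, the calcium pump of the endoplasmic reticulum in most tissues and of slow and heart muscle. It had the most counts of the 10 genes, 20793 in wildtype and 24617 in Ucp1-KO iBAT, or 18742 and 27311 normalised counts. It was 1.46-fold higher in the Ucp1-KO library and so under 2-fold, and its log2 ratio was 0.54 (0.51 to 0.58). This was the 2552nd highest ratio of all genes examined, within the top 16.8%. With total counts as the scale the ratio was 0.24. Atp2a1, the pump of fast muscle, went the other way with 34222 and 6950 counts and a log2 ratio of -2.00 (-2.05 to -1.95). Atp2a3, a pump of blood cells, endothelium and epithelia, had 1186 and 1152 counts and a log2 ratio of 0.26 (0.09 to 0.43). Per kilobase of exon, Atp2a2 held 24.3% (23.9 to 24.8%) of pump transcript in wildtype and 61.8% (60.9 to 62.6%) in Ucp1-KO iBAT, and Atp2a1 held 72.5% and 31.6%. Atp2a1 was thus the more abundant pump transcript in the wildtype library and Atp2a2 in the Ucp1-KO library. The Atp2a1 ratio lay inside the range of the 22 skeletal muscle markers, -3.92 to -1.87. The part of muscle transcripts in the pump shares was not tested. In absolute terms Atp2a1 was lower by more normalised counts than Atp2a2 was higher, with differences of -23136 and 8569.

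The small membrane proteins sarcolipin and phospholamban bind SERCA pumps and lower their calcium transport. Sln had 68 counts in wildtype and 97 in Ucp1-KO iBAT, and its log2 ratio was 0.81 (0.15 to 1.49). Pln had 54 and 20 counts and a log2 ratio of -1.12 (-2.34 to -0.04). Both were low beside the pumps, and the intervals are wide. Mrln, which encodes the muscle SERCA inhibitor myoregulin, had 28 counts in wildtype and 0 in Ucp1-KO iBAT and was at least 3.79-fold lower with the Ucp1-KO library set at the limit of 6 counts. With the error of the wildtype count included, the interval began at 2.69-fold lower.

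Ryanodine receptors release calcium from the endoplasmic reticulum. Ryr2 (13:11567988-12121870, minus strand), the heart type, had 73 counts in wildtype and 152 in Ucp1-KO iBAT, or 65.8 and 169 normalised counts. It was 2.55-fold higher in Ucp1-KO (1.71 to 3.91), a log2 ratio of 1.35 and the 715th highest of all genes examined. Its mean of 117 normalised counts is at the lower edge of a class of 5373 genes from 100 to 1000, of which 5.34% were at least 2-fold higher, and next to the class from 10 to 100, of which 19.5% were. Ryr3 (2:112461699-113047441, minus strand), found in brain and in some muscles, had 45 and 6 counts, or 40.6 and 6.66 normalised counts, and was 5.74-fold lower in Ucp1-KO. With 6 counts the interval is wide (1.84 to 31.7), and of 3444 genes with a mean of 10 to 100 normalised counts 24.4% were at least 2-fold lower. In addition, 917 of the 15458 bases of the canonical Ryr3 transcript overlap Aven on the opposite strand, which had 1206 and 586 counts, and the reads of the overlap cannot be assigned without knowing whether counting used strand.

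Both channels were minor beside Ryr1, the skeletal muscle type, which had 4584 and 1215 counts and a log2 ratio of -1.62 (-1.75 to -1.49). Per kilobase of exon, Ryr1 made up 97.8% of ryanodine receptor transcript in wildtype and 91.3% in Ucp1-KO iBAT. Ryr2 made up 1.12% (0.789 to 1.55%) and 8.23% (6.52 to 10.2%), and Ryr3 made up 1.10% and 0.518%. Ryr3 counts per 1000 were 5.24 and 5.46 for Myh7, 30.9 and 26.3 for Tnnc1, 4.49 and 3.37 for Ckm and 0.589 and 1.01 for Acta1, whereas Ryr2 counts per 1000 of Ryr1 were 15.9 and 125. Ryr3 therefore differed less relative to muscle transcripts than in its own level. Any gene lower by a like amount would do so, in whatever cells it is expressed. The Ryr3 log2 ratio of -2.52 lay inside the range of the skeletal muscle markers. With 6 counts in the Ucp1-KO library, its interval of -4.99 to -0.88 held that whole range. The part of muscle transcripts in the Ryr3 result was not tested. The log2 ratio of Ryr2, 1.35, lay above all 22 skeletal muscle markers.

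**Figure D3:**
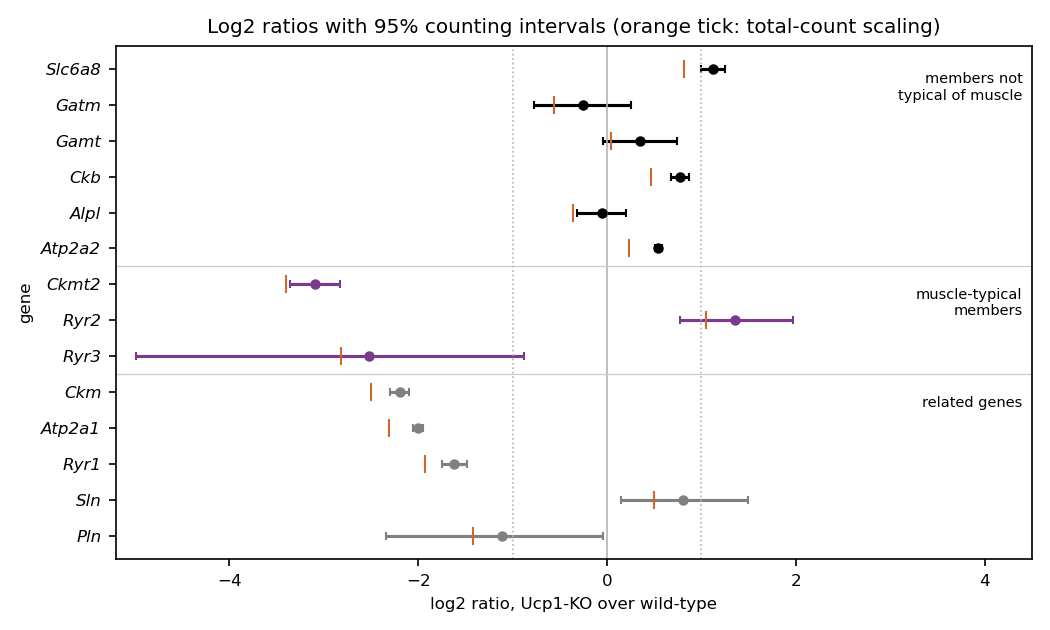
Log2 ratio of Ucp1-KO to wildtype for the members and the related genes Ckm, Atp2a1, Ryr1, Sln and Pln, with bars for 95% counting intervals and orange ticks for total-count scaling. Ckmt2 (-3.09) and Ryr3 (-2.52) fall on the side of Ckm (-2.19), Atp2a1 (-2.00) and Ryr1 (-1.62), while Ryr2 (1.35), Slc6a8 (1.12), Ckb (0.78) and Atp2a2 (0.54) lie above 0.

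Markers of other tissues that express Ryr2 were examined beside it. Of 6 heart markers, Nppb and Myl7 had 0 counts in both libraries and Nppa had 0 and 2. Myh6 had 64 counts in wildtype and 2 in Ucp1-KO iBAT, Tnnt2 had 30 and 3, and Tnni3 had 13 and 16. None of the heart markers had an interval above 0, but their counts were low. The interval of Tnni3, -1.09 to 2.35, included the Ryr2 ratio of 1.35, while those of Myh6 and Tnnt2 lay below 0. Of 7 smooth muscle and pericyte markers, 6 had intervals below 0 and Cnn1, which encodes calponin, was higher, with a log2 ratio of 1.85. The 4 nerve and Schwann cell markers examined had a median log2 ratio of -0.30. The part of these cells in the Ryr2 result was not tested.

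The members were then set beside the rest of the calcium system. Of 14 genes of the muscle-type calcium store, 13 were examined, 10 were at least 2-fold lower, none was 2-fold higher, and the median log2 ratio was -2.00 (-1.92 with Mrln at its bound). They included Casq1, the calcium-binding protein of the store, at -3.65 and the voltage sensor gene Cacna1s at -2.84. Sln was the only one of the 13 with an interval above 0. The 17 genes of general calcium storage and entry had a median of -0.12 and none reached 2-fold. The interval lay above 0 for 5 of them and below 0 for 8. The largest ratios in size were those of Itpr3, an inositol trisphosphate receptor that releases calcium from the store, at -0.87, the sodium/calcium exchanger gene Slc8a1 at -0.85 and the entry channel gene Orai2 at -0.76. The highest was that of Itpr2, another such receptor, at 0.59 (0.51 to 0.66), beside 0.54 for Atp2a2. The 9 genes of mitochondrial calcium transport had a median of 0.05 and none reached 2-fold. Micu3, a regulator of the mitochondrial uniporter, had 1071 and 1569 counts and a log2 ratio of 0.85 (0.69 to 1.01). Mcub, a subunit that lowers uniporter activity, had 29 and 43 counts and an interval of -0.16 to 1.94, and the mitochondrial sodium/calcium exchanger gene Slc8b1 was at -0.53. The median of the muscle-type store thus lay far below those of general and mitochondrial calcium handling. Atp2a2 and Ryr2 lay above 0, as did some genes of each list. The α1-adrenergic receptors, which raise cell calcium, were represented by Adra1a with 3615 and 4674 counts and a ratio of 0.67 on the log2 scale (0.58 to 0.76). Adra1d had 625 and 526 counts with an interval of -0.19 to 0.29, and Adra1b had 0 in both libraries.

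**Figure D4:**
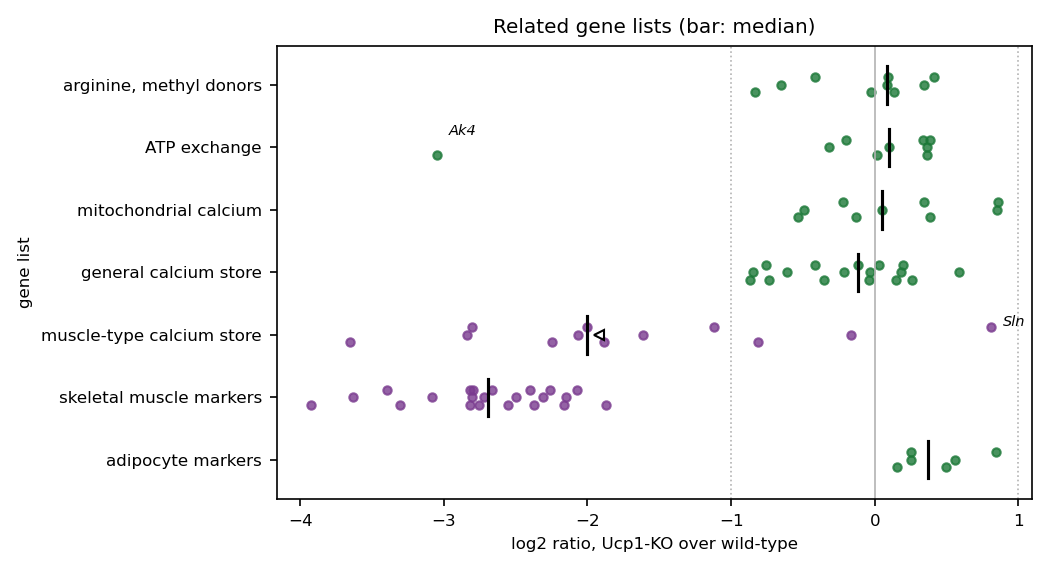
Log2 ratio of Ucp1-KO to wildtype for every examined gene of 7 related gene lists, 1 point per gene, with a bar at each median and an open triangle for Mrln at its bound. The skeletal muscle markers (median -2.69) and the muscle-type calcium store (median -2.00) lie far below 0, while the general (-0.12) and mitochondrial (0.05) calcium lists lie around it.

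Markers of the cell types of iBAT also moved between the libraries. All 6 adipocyte markers had intervals above 0, with a median log2 ratio of 0.37, and ran from Adipoq at 0.84, Plin1 at 0.56 and Cidea at 0.49 to Pparg and Lipe at 0.25 and Fabp4 at 0.15. Beside it, the median of the 6 examined members not typical of muscle was 0.45. All 6 endothelial markers had intervals below 0, with a median of -0.89, and 5 of 6 preadipocyte and fibroblast markers did so, with a median of -0.16. The 5 macrophage markers had a median of 0.25, with Itgam at 2.04, Cd68 at 1.09, Mrc1 at 0.25, Csf1r at -0.01 and Adgre1 at -0.21. The log2 ratio of Atp2a2, 0.54, lay above 4 of the 6 adipocyte markers, that of Ckb, 0.78, above 5, and that of Slc6a8, 1.12, above all 6. The part of cell composition in these results was not tested.

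**Figure D5:**
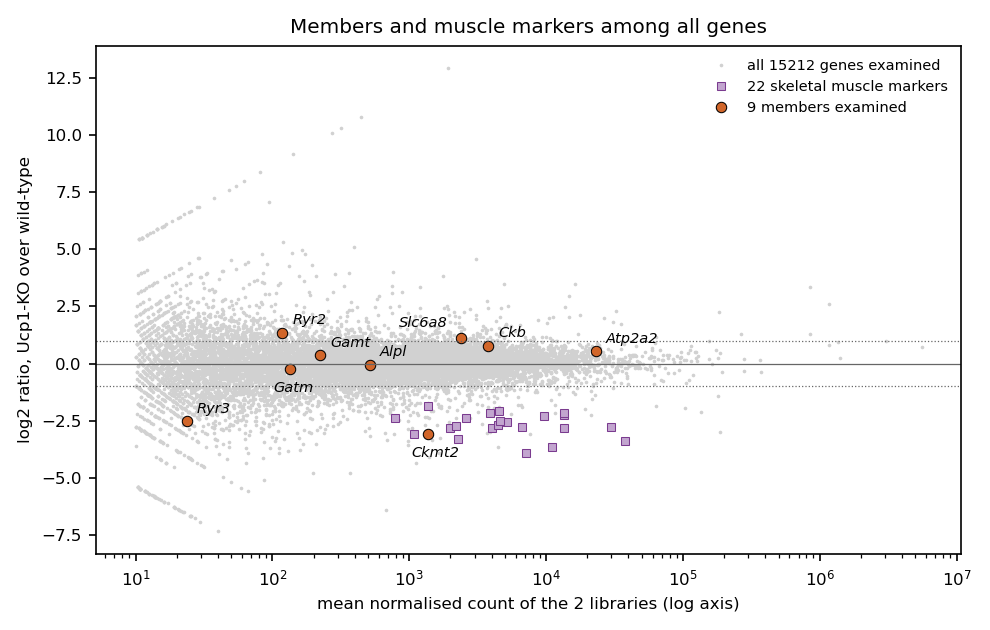
Log2 ratio of Ucp1-KO to wildtype against mean normalised count on a log axis for the 15212 genes examined, with the members and the 22 skeletal muscle markers marked and dotted lines at 2-fold. Ratios scatter more widely at low levels, where Ryr3 and Ryr2 lie, than at the levels of Slc6a8, Ckb, Ckmt2 and Atp2a2.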

How the data were processed

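Per the labels, poly(A)-enriched RNA of iBAT was sequenced from strand-specific libraries, 1 wildtype and 1 Ucp1-KO. The authors deposited raw featureCounts counts per gene, named by Entrez identifier and symbol. The submitters' processing notes name the genome mm39, and the methods describe Trim Galore and HISAT2 for cultured cells. The annotation, the strand setting of the counting and the treatment of multi-mapping reads are not given in the sources used here. Rows without a symbol numbered 1319 and took 0.156% and 0.121% of counts.

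Counts were scaled by DESeq2 1.42.0 size factors (1.11 and 0.901), and a gene was examined where its mean over both libraries reached 10 normalised counts. Ratios used a pseudocount of 0.5. Of counts from 1 to 10, 70.7% and 73.4% were even, so the reads of a pair appear to be counted separately, and exact 95% intervals were computed on read pairs (counts halved). They cover counting error only, and may be too narrow even for that, since PCR duplicates are not independent molecules. The scripts were checked on simulated data. Named were every member, 7 related genes fixed by name, the sex-linked genes, and of each list up to 3 examined genes with the largest ratio in size (lists of up to 4 genes whole). The other adipocyte and macrophage markers were added after their values were seen. Myh7 and Tnnc1, used as muscle references, Nppa, Nppb and Myl7 of the heart list and Itpr2 were also named outside this rule. Some listed genes are not reported here. The members and lists were chosen with earlier results of these data known. Alternatives were total counts and edgeR 4.0.16 scaling (TMM), other filters, pseudocounts, thresholds and transcript lengths. No DESeq2 or edgeR test was run, since 1 library per genotype gives none.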

Additional observations from a re-analysis of the deposited data

How the results depend on the processing

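Of 177 alternative values, 115 were scored as the same. Ratios, medians, shares and levels had to stay within the main interval, and counting intervals to keep their position against 0. Member counts had to be equal or close to the main ones. Reversal of direction could be scored only for ratios and medians whose interval excluded 0, and 0 reversed. Scaling to total counts lowered the median of all genes by 0.31 on the log2 scale. Under it the log2 ratios were 0.47 for Ckb, -3.39 for Ckmt2, 0.82 for Slc6a8, -0.36 for Alpl and 0.24 for Atp2a2, the median of members not typical of muscle was 0.14, and 1 member was at least 2-fold higher. Requiring a log2 ratio of 1.5 left 0 members higher, and requiring the whole interval beyond 2-fold left 1 higher and 1 lower. Intervals on counts as deposited put Gamt above 0.

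Creatine kinase and pump shares, and the members' levels per kilobase, moved with the transcript length used. With the longest transcript, the wildtype and Ucp1-KO shares were 30.8% and 81.1% for Ckb, 27.5% and 4.96% for Ckmt2, 70.4% and 29.3% for Atp2a1, 27.1% and 65.8% for Atp2a2 and 2.45% and 4.88% for Atp2a3, and the Ucp1-KO share of Ckm was 13.97%. With the Ensembl canonical transcript, a choice made after seeing the data, as were other lengths for the levels, the shares were 33.2% and 82.8% for Ckb, 39.3% and 12.5% for Ckm, 27.5% and 4.69% for Ckmt2, 62.6% and 22.4% for Atp2a1, 35.5% and 74.2% for Atp2a2 and 1.98% and 3.40% for Atp2a3. The shares of Ryr1, Ryr2 and Ryr3 stayed within their intervals. No paired analysis was possible because the wildtype and the Ucp1-KO group hold 1 library each, which also leaves no library to leave out. Differences between animals cannot be read from pools, and Ryr3 and Ckmt1 were limited by depth.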
